A study of Mus musculus with 14 samples.

Results

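Peri cells and Fibro cells of the uninjured mouse lung were compared gene by gene on 4 of the 14 single-colour bead arrays of the series, 2 arrays for each population. A gene entered the comparison when a probe for it was detected (detection p-value under 0.05 against the negative controls of the array) on at least 2 of the 14 arrays, which left 12444 genes, and all of them were tested. The mice carried Foxd1-Cre, Rosa26-tdTomato and Coll-GFP together. Cre under the Foxd1 promoter switches on tdTomato permanently in cells that express Foxd1 or descend from such cells, and Coll-GFP reports collagen expression with GFP. Peri cells were sorted as tdTomato-positive and GFP-negative, Fibro cells as GFP-positive and tdTomato-negative, and another population with both colours, PeriFibro, serves here as a reference from uninjured lungs. Uninjured mice received saline into the trachea at 2 uL/g and were harvested at day 7, whereas injured mice received 0.8 U/kg bleomycin in the same volume. All uninjured arrays came from female mice and all bleomycin arrays from male mice. The labels give no age, and they do not say whether the arrays of a population came from separate mice, so the p-values measure only the spread between these samples.

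Pericytes are mural cells that wrap capillaries inside the basement membrane, where they steady the vessel wall and exchange signals with the endothelium. They are usually recognised by the receptor PDGFRB, the proteoglycan NG2 (Cspg4), the G protein regulator Rgs5, the receptor Notch3 and the potassium channel subunit Kcnj8. Fibroblasts lie in the interstitium and secrete fibrillar collagens, elastic fibre proteins and proteoglycans. In the lung, those of the alveolar wall express Pdgfra and Tcf21, and those around vessels and airways express Dcn and Pi16.

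The labels were first set against these defining markers. The values are normalised log2 signals, on which the lowest detected probe of the 4 arrays lay between 4.78 and 4.79. Pdgfrb measured 5.74 and 5.38 on the Peri arrays and 6.47 and 6.14 on the Fibro arrays, and Notch3 5.65 and 4.89 against 6.84 and 6.95. Rgs5 was not detected on either Peri array (4.35 and 4.38) and lay at 4.78 and 4.82 in Fibro. Cspg4 (4.91 and 4.51 in Peri and 4.79 and 4.68 in Fibro) was detected on 1 array of each population, and Kcnj8 measured 4.86 and 5.77 against 5.05 and 5.22. None of these 5 pericyte markers passed the test, with log2 differences (Peri minus Fibro) from -1.62 to 0.18, and the sign for Cspg4 turned under 3 alternative settings. Among the uninjured arrays Pdgfrb, Cspg4, Rgs5 and Notch3 were each highest on PeriFibro array 1 (8.34 and 6.55 for Pdgfrb on the PeriFibro arrays). Foxd1 was detected on 0 of the 14 arrays.

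The chains of type I collagen were near the detection level in both populations. Col1a1, a chain of type I collagen, was not detected on the Peri arrays (4.59 and 4.36) and on 1 of the Fibro arrays (5.93 and 4.73), and Col1a2 lay at 4.63 and 4.72 against 5.40 and 6.32. Pdgfra was higher in Fibro, with 7.19 and 7.20 on its arrays against 5.27 and 4.43 on the Peri arrays (5.08-fold, log2 difference -2.34 ± 0.48 SE, limma adjusted p = 0.0043), and so was the transcription factor Tcf21 (6.65 and 7.94 against 5.10 and 4.40, 5.82-fold, adjusted p = 0.019). Neither call held without Peri array 2, where the adjusted p was 0.054 for Pdgfra and 0.13 for Tcf21, and that of Tcf21 was also lost without Fibro array 2 (0.14). Dcn, the proteoglycan decorin, measured 10.28 and 10.16 in Fibro and 7.57 and 7.68 in Peri without passing the test (-2.60 ± 1.03 SE, limma adjusted p = 0.092). The arrays of each population lay close together for Dcn, and the SE pools the spread of all 6 groups. Pi16 ran the other way, at 9.87 and 10.26 in Peri and 7.67 and 5.86 in Fibro (9.85-fold higher in Peri, adjusted p = 0.0027). Leukocyte genes were detected in both populations, and the transcripts of alveolar epithelium and macrophages were far above background in Fibro. Peri and Fibro are therefore used below as the names of the sorting gates.

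**Figure D1:**
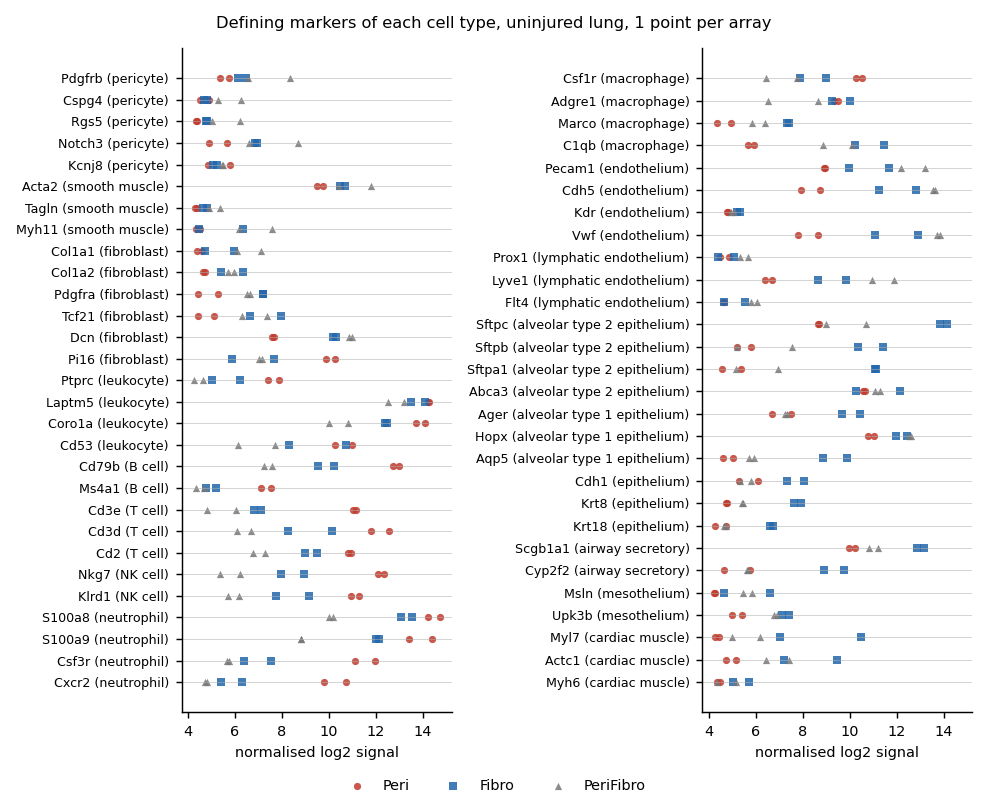
Defining markers of each cell type in the uninjured lung. Each point is the normalised log2 signal of 1 array (2 arrays each of Peri, Fibro and PeriFibro). Of the pericyte markers Notch3, Pdgfrb and Rgs5 are lower on both Peri arrays than on both Fibro arrays, without passing the test. The gap is widest for Notch3 (5.65 and 4.89 against 6.84 and 6.95), and Cspg4 and Kcnj8 overlap. Lymphocyte markers such as Cd3e and Nkg7 are highest in Peri, and surfactant genes such as Sftpc and Sftpa1 are highest in Fibro.

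Between Peri and Fibro 2703 of 12444 genes were called (21.7%), where a gene counts as called if its limma adjusted p was below 0.05 and the means differed at least 2-fold. Of these, 1105 were higher in Peri (8.88% of the genes tested) and 1598 lower (12.8%). In every called gene both Peri arrays lay on the same side of both Fibro arrays, while over all genes tested the arrays separated without overlap in 3539 with Peri above (28.4%) and in 3917 with Peri below (31.5%). The median log2 difference of all genes was -0.033, with quartiles of -0.62 and 0.54. The lower side reached further. A difference of 4-fold or more was found for 447 called genes higher and 908 lower in Peri, and one of 16-fold or more for 32 and 86. Of the called genes lower in Peri 372 were not detected on either Peri array, and 124 of those higher were not detected on either Fibro array. A fold marked "at least" for such a gene is a bound, taken against the higher of the measured signal and the lowest detected signal on each dim array.

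**Figure D2:**
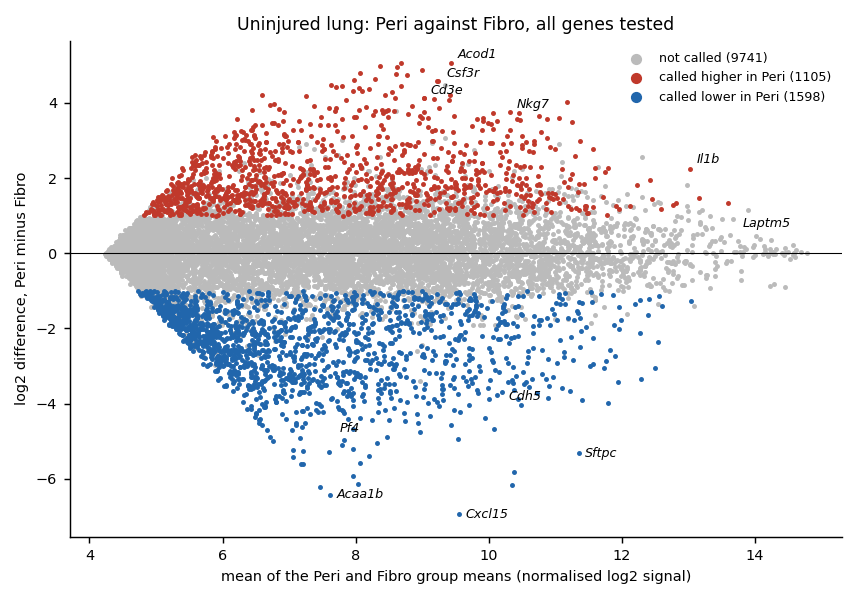
Log2 difference (Peri minus Fibro, vertical axis) against the mean of the Peri and Fibro levels (normalised log2 signal, horizontal axis) for the 12444 genes tested, 1 point per gene. The 1105 genes called higher in Peri and the 1598 called lower are coloured, and the lowest differences (Cxcl15, Acaa1b) lie further from 0 than the highest (Acod1).

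The Fibro arrays were less alike than the Peri arrays. The 2 Peri arrays correlated at r = 0.981 over the tested genes and the 2 Fibro arrays at 0.931, and 481 genes differed at least 2-fold between the Peri arrays against 2982 between the Fibro arrays. Transcripts of heart muscle stood among the largest gaps, with Myl7, the atrial myosin light chain, at 7.04 and 10.49 on Fibro arrays 1 and 2. Neither Fibro array correlated best with the other. The count of called genes was 2015 without Peri array 1, 1527 without Peri array 2, 2897 without Fibro array 1 and 1933 without Fibro array 2, and the share of them higher in Peri was 48.1% without Fibro array 1 and 30.7% without Fibro array 2, against 40.9% with all arrays. On the normalised values as the authors deposited them 854 genes were called, and the count of a list on those values is given below where a count of 2 or more fell by a factor over 1.5. The median differences of the lists were also smaller in size on those values, except for the class II genes. In sorted bulk RNA a lower level can mean fewer cells of a type or less RNA per cell, and these cannot be told apart.

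Genes of B lymphocytes were higher in Peri. Of 14 B cell genes tested 13 were called higher and 0 lower, with a median log2 difference of 3.02 (2.95 with bounds in place of undetected levels) against -0.033 over all genes. On the deposited values 8 of the 14 were called. Fcer2a, the low-affinity IgE receptor CD23, measured 11.07 and 11.14 on the Peri arrays and 7.22 and 5.07 on the Fibro arrays, a 31.2-fold difference (4.96 ± 0.88 SE, adjusted p = 0.0019). Pou2af1, the coactivator that B cells need for germinal centres, lay at 10.65 and 10.26 against 7.21 and 6.16 (13.7-fold), and Fcrla, an Fc receptor-like protein of B cells, at 12.49 and 11.94 against 9.23 and 8.04 (11.96-fold). Blk, a tyrosine kinase of B cells, was high on both Peri arrays (11.22 and 11.07) but uneven between the Fibro arrays (7.75 and 5.07), and was not called without Fibro array 2 (adjusted p = 0.069). The immunoglobulin receptor chain Cd79b (12.98 and 12.73 against 10.21 and 9.54, 7.89-fold) likewise lost its call there (adjusted p = 0.053). Ms4a1, the B cell antigen CD20, was at 7.53 and 7.11 against 5.18 and 4.75 (5.12-fold, adjusted p = 0.0015).

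T cell genes showed the same separation, with 14 of 16 called higher in Peri, 0 lower, and a median of 3.42. Cd3e, a signalling chain of the T cell receptor, lay at 11.17 and 11.02 in Peri and at 6.79 and 7.11 in Fibro (17.7-fold, 4.14 ± 0.83 SE, adjusted p = 0.0038). Cd3d, its partner chain, was 7.90-fold higher (12.57 and 11.78 against 8.24 and 10.14). Bcl11b, a transcription factor of T cell commitment, was higher by 4.64 ± 0.93 SE on the log2 scale (10.44 and 10.78 against 6.79 and 5.14, adjusted p = 0.0039), and Stat4, which relays interleukin-12 signals, 21.4-fold (10.07 and 9.75 against 6.23 and 4.75). Cd6, a receptor of T cells, had one of the largest differences (10.97 and 10.73 against 6.62 and 5.12, 31.6-fold), but the log2 difference was 4.98 ± 1.30 SE and the call was lost without Peri array 1, without Peri array 2 and without Fibro array 2 (adjusted p = 0.076, 0.080 and 0.11). Sh2d2a, a T cell adapter protein, lost its call in the same way (adjusted p = 0.075, 0.088 and 0.13). Of the 16 genes, Cd4 and Cd8b1 were the members not called, with log2 differences of 0.72 and 0.55.

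Genes of natural killer and other cytotoxic cells followed, with 10 of 11 called higher, 0 lower and a median of 3.50 (3.21 with bounds). On the deposited values 5 of the 11 were called, with a median of 1.10. Nkg7, a granule membrane protein, measured 12.08 and 12.33 in Peri and 7.95 and 8.92 in Fibro (13.6-fold, 3.77 ± 0.62 SE, adjusted p = 0.0013). Fasl, the ligand that triggers death of target cells, was 15.7-fold higher (8.53 and 8.99 against 4.93 and 4.63, adjusted p = 0.00010), and Klre1, a lectin-like receptor of NK cells, 12.8-fold (10.06 and 10.14 against 5.73 and 7.11). Ctsw, a cathepsin of cytotoxic granules, was 21.97-fold higher (10.82 and 10.996 against 6.71 and 6.19). Ifng, the cytokine interferon gamma, was not detected on either Fibro array and varied between the Peri arrays (7.21 and 9.46). Its difference was at least 11.7-fold and was not called without Peri array 2 (adjusted p = 0.088).

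**Figure D3:**
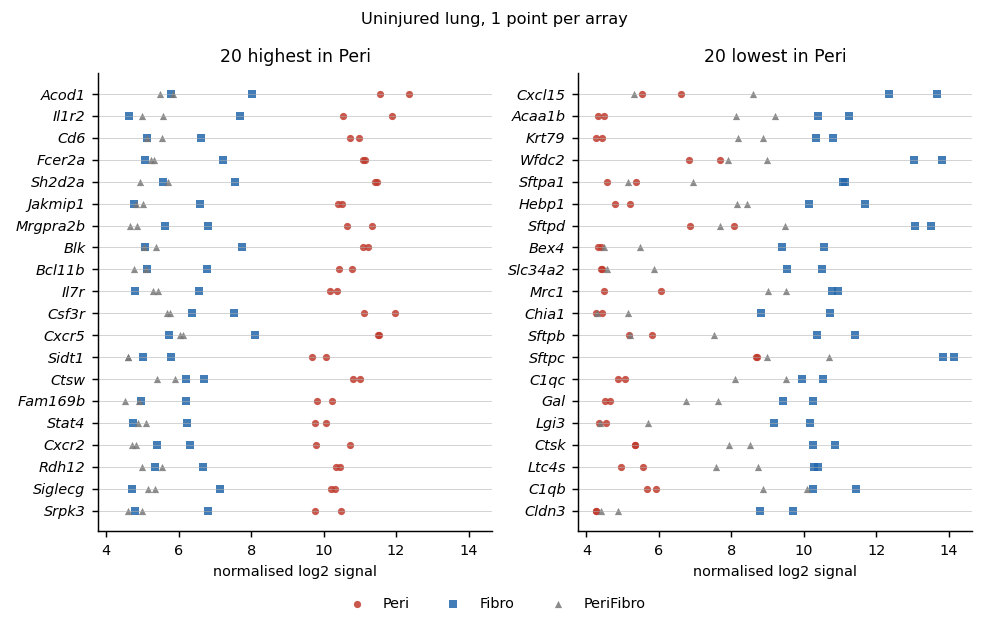
The 20 genes highest and the 20 lowest in Peri among called genes, in the uninjured lung. Each point is the normalised log2 signal of 1 array. The Peri arrays lie between 9.68 and 12.35 in the left panel, above both Fibro arrays of each gene, and on the right they lie under both Fibro arrays. The PeriFibro arrays lie near or below the Fibro arrays on the left, and on the right they spread from the Peri to the Fibro levels.

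Several of the most different genes belonged to no lymphocyte list. Acod1, the enzyme that makes itaconate in activated myeloid cells, had the highest difference of all (11.56 and 12.35 in Peri and 8.01 and 5.78 in Fibro, 33.2-fold, 5.05 ± 1.35 SE, adjusted p = 0.019). It was not called without Peri array 1, Peri array 2 or Fibro array 2 (adjusted p = 0.059, 0.12 and 0.14). Siglecg, an inhibitory lectin of B cells, was 20.1-fold higher (10.32 and 10.19 against 7.14 and 4.72, adjusted p = 0.0037). At the other end Krt79, a keratin, was not detected in Peri (4.42 and 4.28) and lay at 10.80 and 10.33 in Fibro (at least 55.0-fold lower, adjusted p = 0.00088). Chia1, an acidic chitinase, was at least 31.9-fold lower (4.43 and 4.27 against 8.83 and 10.73), and Ltc4s, which makes leukotriene C4, 34.1-fold lower (5.55 and 4.94 against 10.29 and 10.39). The 20 highest log2 differences ran from 4.31 to 5.05 and the 20 lowest from -6.93 to -4.98.

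Neutrophil genes were higher in Peri in 9 of 16 cases and lower in 0, with a median of 2.84. Both Peri arrays lay above both Fibro arrays for all 16, against 28.4% of all genes. The abundant calgranulins did not pass the test. S100a8 was bright in both populations (14.22 and 14.70 in Peri and 13.08 and 13.54 in Fibro, adjusted p = 0.12), and S100a9 measured 13.40 and 14.37 against 12.01 and 12.14 (adjusted p = 0.068). The receptors were called. Csf3r, which binds granulocyte colony-stimulating factor, lay at 11.11 and 11.96 against 7.53 and 6.36 (24.2-fold, 4.59 ± 1.04 SE, adjusted p = 0.0080), and Cxcr2, the receptor for neutrophil-attracting chemokines, at 9.78 and 10.71 against 6.31 and 5.39 (21.1-fold). Il1r2, a decoy receptor for interleukin-1, was 33.2-fold higher (10.54 and 11.88 against 7.69 and 4.62). Fewer of the 16 genes were called without Peri array 2 or without Fibro array 2. Csf3r and Il1r2 lost their calls in both cases, and Cxcr2 without Peri array 2. Such a fit leaves a single array in its group, so lost calls do not show that the difference rests on the omitted array. The list median changed little, at 2.74 to 2.89 with single arrays left out. Peri array 2 was the brighter of the pair for all genes named above. Without it the log2 difference was 4.18 for Csf3r, 3.95 for Cxcr2 and 4.41 for Il1r2, against 4.59, 4.40 and 5.05 with all arrays. Without Fibro array 2 it was 3.99, 3.93 and 3.50.

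Genes carried by most blood cells differed less. Of 16 pan-leukocyte genes 12 were called higher in Peri and 0 lower (median 1.72), falling to 8 without Peri array 1, 7 without Peri array 2 and 8 without Fibro array 2. Cd37, a tetraspanin of leukocytes, measured 10.49 and 10.79 against 7.49 and 6.39 (13.03-fold, adjusted p = 0.00038), and Ikzf1, a transcription factor of lymphocyte development, 11.52 and 11.44 against 8.89 and 8.23 (7.58-fold). Rac2, the GTPase of the leukocyte cytoskeleton, was 6.58-fold higher (adjusted p = 0.00038). Ptprc, the CD45 phosphatase of nucleated blood cells, was above the Fibro arrays on both Peri arrays (7.42 and 7.86 against 5.01 and 6.22, 4.08-fold, adjusted p = 0.0046), but its call was lost without Peri array 2 (adjusted p = 0.051). Laptm5, a lysosomal protein of blood cells, measured 14.21 and 14.27 in Peri and 14.10 and 13.47 in Fibro and was not called. The summed linear signal of the 16 genes was 85266 and 85730 on the Peri arrays, 39601 and 32696 on the Fibro arrays, and 10027 and 16269 on the PeriFibro arrays. The study names the sorted populations by tdTomato and GFP, refers to an earlier protocol for the sort, which was not used here, and describes labelled cells of the Foxd1 lineage as negative for surface markers of leukocytes, endothelium and epithelium. The part of leukocyte transcripts in the other results was not tested.

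The promoters of 2 of these genes are shown because a match to the core motif of PU.1, a transcription factor of myeloid and B cells, lies just before the start. The motif searched was GAGGAAGT on both strands, in the 250 bases before each start listed by RefSeq (GRCm38.p6), which covered 10024 of the tested genes. The stretches run 5′ to 3′ along the gene for the 120 bases before the start, with matches in capitals. Cd37 lies on the minus strand at chr7:45238840-45238959, and its match begins 25 bases before the start on the opposite strand. Vav1, an exchange factor for Rac GTPases (11.38 and 11.41 in Peri and 9.60 and 9.03 in Fibro, 4.22-fold higher), lies on the plus strand at chr17:57278980-57279099, with the match beginning 11 bases before the start.
Cd37: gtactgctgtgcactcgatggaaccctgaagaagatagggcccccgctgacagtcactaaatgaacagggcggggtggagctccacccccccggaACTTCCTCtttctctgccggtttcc
Vav1: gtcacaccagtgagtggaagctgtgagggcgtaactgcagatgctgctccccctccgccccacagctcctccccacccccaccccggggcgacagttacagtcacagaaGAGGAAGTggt
The motif was present before 3.97% of the starts of genes called higher, 2.48% of those of genes called lower, 2.57% of those of all genes tested and 2.44% of all promoters of the table. A match is only a description of the sequence. The call of Vav1 was lost without Peri array 1, Peri array 2 or Fibro array 2 (adjusted p = 0.052, 0.067 and 0.079).

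Of 10 homing receptors and integrins 8 were called higher in Peri and 0 lower (median 2.33; 4 without Peri array 2 and 4 without Fibro array 2). Ccr6, a chemokine receptor of lymphocytes, lay at 9.81 and 10.55 against 6.89 and 5.92 (13.7-fold), and Selplg, the ligand that lets leukocytes roll on selectins, at 12.50 and 12.69 against 10.46 and 9.56 (6.01-fold). Among genes of Fc receptor and ITAM signalling 4 of 10 were called higher, all of them downstream proteins (Blnk, Plcg2, Btk and Syk) and none of them an Fc receptor, and 2 without Peri array 2, without Fibro array 2 or on the deposited values. The kinase Btk was 4.51-fold and the adapter Blnk 7.43-fold higher. Of the Toll-like receptor genes 4 of 15 were called higher and 0 lower, with 1 called higher on the deposited values. Their median was 0.54, and 0.24 to 0.92 with 1 array left out. Both Peri arrays lay above both Fibro arrays for 9 of the 15 (28.4% over all genes). They lay below for 4, a share near the 31.5% over all genes. Tlr1 and Tlr6, receptors for bacterial lipopeptides, were 8.80-fold (7.83 and 8.26 against 5.23 and 4.58) and 5.91-fold higher (9.48 and 9.71 against 6.99 and 7.07).

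In the NF-kB and acute inflammatory list 11 of 22 genes were called higher in Peri and 0 lower, with a median of 1.66 (1.61 with bounds). The called members included feedback inhibitors as well as subunits and cytokines. Rel, the c-Rel subunit, measured 8.01 and 8.46 against 6.06 and 5.01 (6.502-fold, adjusted p = 0.00057), and Tnfaip3, the enzyme A20 that ends NF-kB signalling, 10.81 and 11.21 against 8.68 and 8.91 (4.64-fold, adjusted p = 0.00071). Il1b, the cytokine interleukin-1 beta, measured 14.01 and 14.27 in Peri and 12.25 and 11.55 in Fibro (4.73-fold, adjusted p = 0.019). Its call was lost without Peri array 1, Peri array 2 or Fibro array 2 (adjusted p = 0.066, 0.11 and 0.12), and the count of the list was 8, 5 and 4 in these cases and 5 on the deposited values. The inflammatory mediators were not uniformly higher. Tnf measured 7.39 and 7.39 in Peri and 7.51 and 8.14 in Fibro, Icam1 9.90 and 10.05 against 10.91 and 10.03, and Cxcl1 6.86 and 7.62 against 9.06 and 8.72, none of them called. Ccl7, a chemokine for monocytes, was 8.53-fold lower in Peri (4.76 and 5.10 against 8.22 and 7.82, adjusted p = 0.0025). The summed pan-leukocyte signal was also higher on both Peri arrays, and its part in these values was not tested.

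The lists in this paragraph stand beside 8.88% of all genes called higher in Peri and 12.8% called lower, and the interferon counts lie under both shares. Antigen presentation was less distinct. Of 10 class II genes 2 were called higher in Peri, H2-Oa (7.66-fold) and H2-Ob (11.9-fold), the chains of a peptide-loading modulator found chiefly in B cells, while the other 8 had log2 differences from 0.48 to 2.57 without passing the test. Interferon response genes gave 1 of 18 higher (Irf7, 5.70-fold) and 1 lower (Bst2, 3.00-fold), and Irf7 was not called without Peri array 1, Peri array 2 or Fibro array 2 (adjusted p = 0.070, 0.12 and 0.13). Complement genes gave 1 of 8 higher and 2 lower (0 to 3 lower when 1 of the 4 arrays was left out, and 0 on the deposited values). Cd55, which protects host cells from complement, was 9.61-fold higher (9.28 and 9.41 against 6.01 and 6.15, adjusted p = 0.00075). Mbp, a myelin protein, was the tested member of a Schwann cell list and was 6.48-fold higher (11.05 and 10.43 against 8.46 and 7.63).

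**Figure D4:**
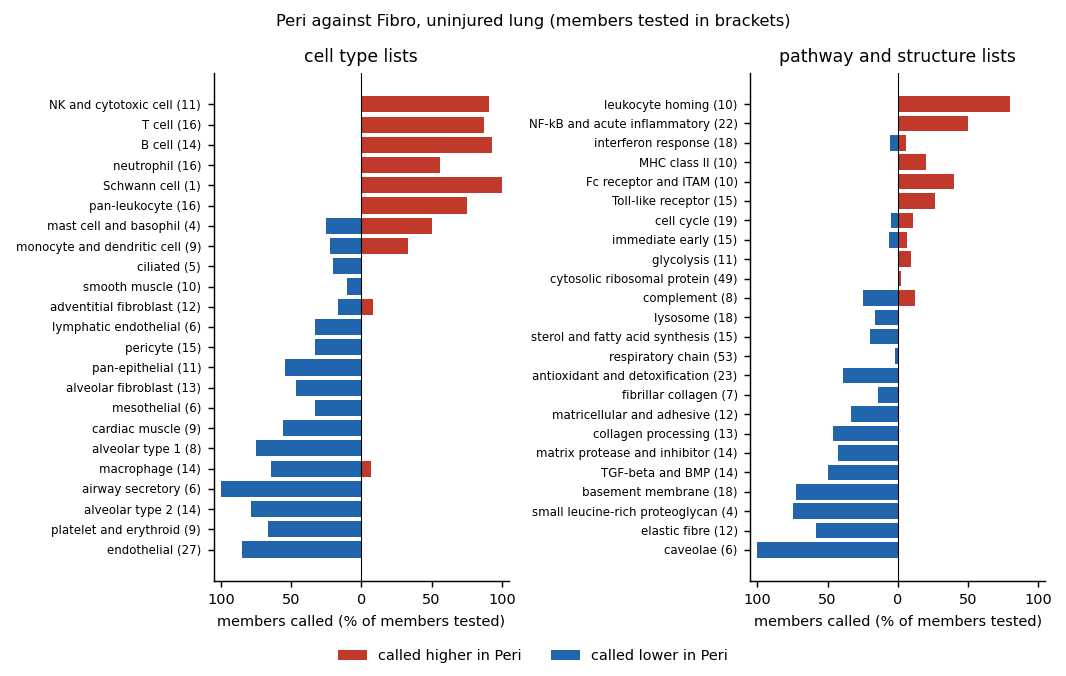
Share of the tested members of each gene list called higher (right of 0) or lower (left of 0) in Peri, in percent, with the number tested in brackets. Lists run by median difference. Lymphocyte lists lie at the top of the cell types with no member lower, and endothelial, platelet, alveolar type 2 and caveolar lists lie at the bottom with no member higher. Over all genes 8.88% were called higher and 12.8% lower.

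Macrophage genes ran against the other leukocyte genes. Of 14 tested 9 were called lower in Peri and 1 higher, with a median of -2.98. These counts, and those of the monocyte and dendritic cell list below, stand beside 12.8% of all genes called lower and 8.88% higher. Mrc1, the mannose receptor of tissue macrophages, measured 6.06 and 4.50 in Peri and 10.94 and 10.79 in Fibro (48.0-fold lower, -5.59 ± 0.80 SE, adjusted p = 0.00053). C1qb and C1qc, chains of complement C1q that macrophages secrete, were 33.2-fold and 38.7-fold lower (5.92 and 5.66 against 11.45 and 10.24 for C1qb). Gpnmb, a glycoprotein of lipid-laden macrophages, was 29.4-fold lower (6.23 and 5.82 against 10.998 and 10.82), and Ctsk, a collagen-degrading cathepsin, 37.0-fold lower (5.34 and 5.35 against 10.24 and 10.87). Adgre1, an adhesion receptor of mouse macrophages, was not called (9.33 and 9.52 against 9.27 and 10.03), and its sign turned without Fibro array 2. The exception was Csf1r, the receptor for macrophage colony-stimulating factor, at 10.29 and 10.53 in Peri and 8.99 and 7.90 in Fibro (3.90-fold higher, adjusted p = 0.030), whose call was lost without Peri array 1, Peri array 2 or Fibro array 2 (adjusted p = 0.087, 0.15 and 0.21). Of 9 monocyte and dendritic cell genes 3 were higher (Cx3cr1, Ccr2 and Irf8; 1 gene without any 1 of the 4 arrays) and 2 lower (1 without Peri array 2 and 0 on the deposited values). Ccl17, a chemokine of dendritic cells, was 22.9-fold lower in Peri (5.04 and 4.93 against 9.33 and 9.67, adjusted p = 0.00100).

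Platelet genes were also lower in Peri. Of 9 platelet and erythroid genes 6 were called lower and 0 higher (median -3.28), and the 6 are genes of platelets and megakaryocytes. Pf4, platelet factor 4, lay at 5.86 and 6.199 in Peri and 9.70 and 11.24 in Fibro (21.7-fold lower, adjusted p = 0.0055). The chemokine Ppbp was 18.7-fold, the adhesion receptor subunit Gp9 18.4-fold and the granule receptor Treml1 18.0-fold lower. Hba-a1, a haemoglobin chain of red cells, was not called (log2 difference -0.82).

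An epithelial gene, Cxcl15, had the lowest difference of all genes tested. Of 14 alveolar type 2 genes 11 were called lower in Peri and 0 higher (median -3.09), and 7 on the deposited values. Cxcl15, the chemokine lungkine of the bronchial and alveolar epithelium, measured 6.61 and 5.54 in Peri and 12.36 and 13.66 in Fibro. Both Peri arrays were far below both Fibro arrays. The surfactant genes followed. Sftpa1 lay at 5.37 and 4.58 against 11.12 and 11.08 (-6.13 ± 0.52 SE), Sftpd at 8.07 and 6.87 against 13.52 and 13.08 (56.9-fold lower, adjusted p = 4.8e-05), Sftpb at 5.82 and 5.19 against 11.42 and 10.37 (41.9-fold, adjusted p = 0.00049) and Sftpc at 8.72 and 8.67 against 13.85 and 14.16 (39.7-fold, adjusted p = 9.2e-05). Sftpc was still detected on both Peri arrays. Slc34a2, the phosphate transporter of type 2 cells, was not detected in Peri and 9.53 and 10.49 in Fibro (at least 37.5-fold lower), and Lgi3, a secreted leucine-rich protein, behaved likewise (at least 29.8-fold). Abca3, the lipid pump of lamellar bodies, was not called (10.64 and 10.58 in Peri and 12.13 and 10.27 in Fibro), and its sign turned without Fibro array 1.

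Sftpb is shown with its promoter because the factor NKX2-1, which drives surfactant genes, recognises the core CTCAAG, and the stretch before its start holds a pair of matches. The 120 bases lie on the plus strand at chr6:72304490-72304609 of GRCm38.p6, and the capitals mark CTCAAG, which begins 100 and 15 bases before the start.
Sftpb: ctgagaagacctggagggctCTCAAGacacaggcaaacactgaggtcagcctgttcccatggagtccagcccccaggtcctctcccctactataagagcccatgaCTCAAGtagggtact
Searched on both strands over 250 bases, CTCAAG was present before 12.8% of the starts of genes called lower, 13.7% of those of genes called higher, 12.5% of those of all genes tested and 13.3% of all promoters of the table, so the short core is common.

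Other epithelial compartments were lower in Peri as well. Type 1 cell genes were called lower in 6 of 8 cases and higher in 0 (median -2.51), with 3 called on the deposited values. They were led by the water channel Aqp5 (5.03 and 4.62 in Peri and 8.87 and 9.90 in Fibro, 23.6-fold lower, adjusted p = 2.5e-05) and by Cldn18, a tight junction protein (at least 10.3-fold). Ager, the receptor RAGE of type 1 cells, was 7.80-fold lower (6.69 and 7.49 against 9.66 and 10.44). All 6 airway secretory genes tested were called lower, while 3 were without Peri array 1, Peri array 2 or Fibro array 2 and 1 was on the deposited values. Cyp2f2, a cytochrome of club cells, was 17.4-fold lower (5.76 and 4.66 against 8.90 and 9.77), while Scgb1a1, the club cell secretoglobin, was bright in both populations (9.96 and 10.23 against 13.18 and 12.89, 7.67-fold lower) and was not called when any 1 of the 4 arrays was left out (adjusted p from 0.056 without Fibro array 2 to 0.083 without Peri array 1). The keratins Krt8 and Krt19 were not detected on either Peri array, at differences of at least 7.95-fold and at least 15.8-fold, and the junction gene Cldn3 was at least 22.1-fold lower. Epcam was detected on 0 of the 14 arrays. Wfdc2, a protease inhibitor of airway epithelium, reached 13.03 and 13.80 in Fibro against 7.70 and 6.83 in Peri (71.4-fold lower, adjusted p = 3.3e-05). Lyz1, a lysozyme (14.24 and 14.64 in Peri and 14.66 and 14.52 in Fibro), and Napsa, an aspartic protease (12.62 and 12.48 against 12.28 and 12.65), were bright in both populations and not called. The summed linear signal of all 14 type 2 genes was 28470 and 33756 on the Peri arrays and 74456 and 77689 on the Fibro arrays. On the PeriFibro arrays it was 22939 and 26188, below Peri. Without Lyz1 and Napsa, left out because they were not called, the sums were 2745 and 2445 in Peri and 43669 and 47781 in Fibro. Those of PeriFibro were then 5594 and 3705, above Peri.

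Endothelial genes were lower in Peri in 23 of 27 cases and higher in 0, with a median of -3.59. The Peri arrays lay below the Fibro arrays for all 27, against 31.5% of all genes. Gpihbp1, which anchors lipoprotein lipase to capillary walls, measured 8.01 and 7.49 in Peri and 12.59 and 12.23 in Fibro (25.4-fold lower, -4.66 ± 0.40 SE, adjusted p = 4.4e-05). Car4, the carbonic anhydrase of capillary endothelium, was 18.7-fold lower (7.68 and 7.22 against 11.58 and 11.76), and Aplnr, the apelin receptor, 19.1-fold (6.38 and 5.02 against 10.31 and 9.60). Cdh5, the cadherin of endothelial junctions, lay at 8.74 and 7.95 against 12.84 and 11.25 (12.97-fold lower, adjusted p = 0.0026), and Vwf at 8.67 and 7.81 against 12.92 and 11.09 (13.6-fold). Fibro array 1 was above Fibro array 2 for both. Pecam1, the antigen CD31, showed the same order (8.95 and 8.90 in Peri, 11.67 and 9.97 in Fibro) without passing the test (adjusted p = 0.053). The PeriFibro arrays were above Fibro for Cdh5 (13.54 and 13.62) and Vwf (13.84 and 13.71). The summed linear signal of the list was 13375 and 8750 in Peri, 159320 and 85141 in Fibro, and 239920 and 231230 in PeriFibro. Its part in the matrix and signalling results below was not tested.

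Caveolar coat genes, which are abundant in endothelium and also made by fibroblasts and smooth muscle, were called lower in Peri in 6 of 6 cases (median -3.45). Cav1, the structural caveolin, lay at 9.48 and 9.31 in Peri and 13.13 and 12.97 in Fibro (12.6-fold lower, -3.65 ± 0.45 SE, adjusted p = 0.00023), and Cavin1 at 6.70 and 6.59 against 10.34 and 10.41 (13.3-fold). Genes of TGF-beta and BMP signalling were lower in 7 of 14 cases and higher in 0 (median -1.32, or -1.19 with bounds), with 4 on the deposited values. The ligands Bmp4 and Bmp6 were 9.65-fold and at least 5.73-fold lower, the receptor Bmpr2 5.94-fold lower, and Id1, a target of BMP signalling, 9.77-fold lower (7.87 and 7.79 against 10.97 and 11.26, adjusted p = 0.00012). Acvrl1, the endothelial BMP receptor ALK1, was 18.1-fold lower (6.29 and 5.13 against 9.50 and 10.26). Tgfb1 and Tgfbr2 were not called, with log2 differences of 0.76 and 0.80.

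All called genes of the extracellular matrix lists were lower in Peri. The 7 matrix lists were fibrillar collagens, basement membrane, elastic fibres, collagen processing, small leucine-rich proteoglycans, matricellular proteins, and proteases with their inhibitors. None of their members was called higher in Peri. Over all genes 8.88% were called higher and 12.8% lower. The matrix protease Mmp9 was called higher but was counted with the neutrophil genes, and the lists were chosen with earlier results of these data known. Basement membrane genes were called lower in 13 of 18 cases (median -2.02, or -1.97 with bounds), 6 without Peri array 2, 7 without Fibro array 1 and 2 on the deposited values (median -0.67). Col4a1, a chain of type IV collagen, lay at 9.66 and 8.97 in Peri and 13.40 and 11.81 in Fibro (9.81-fold lower, adjusted p = 0.0018), and Sparc, a collagen-binding glycoprotein, at 8.54 and 7.74 against 11.77 and 10.77 (8.74-fold). Elastic fibre genes were lower in 7 of 12 cases, and in 3 on the deposited values. Their median was -2.29, -2.715 to -1.56 with 1 array left out, and -0.58 on the deposited values. Eln, tropoelastin itself, was 14.5-fold lower (6.17 and 5.28 against 9.75 and 9.41, -3.85 ± 0.52 SE, adjusted p = 0.00036), the microfibril protein Mfap2 16.6-fold (7.29 and 7.17 against 11.66 and 10.91) and the crosslinking enzyme Loxl1 6.05-fold.

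Of 13 collagen processing genes 6 were lower (3 without Peri array 1 or Peri array 2 and 1 on the deposited values). Serpinh1, the collagen chaperone HSP47, measured 9.17 and 7.76 in Peri and 12.72 and 12.28 in Fibro (16.4-fold lower, adjusted p = 0.00027), and P4ha2, a prolyl hydroxylase subunit, was not detected in Peri (at least 8.26-fold lower). Of 7 fibrillar collagens 1 was called, Col5a1 (4.35-fold lower), a share near the 12.8% of all genes. Their median was -0.86, and most levels were near the detection level. Both Peri arrays lay below both Fibro arrays for 5 of the 7, against 31.5% of all genes. Col5a1 was not called without Peri array 1, Peri array 2 or Fibro array 1 (adjusted p = 0.071, 0.11 and 0.12). Col3a1 was not detected in Peri and lay at 5.45 and 6.47 in Fibro. Among small leucine-rich proteoglycans 3 of 4 were lower (2 without Peri array 1, Peri array 2 or Fibro array 2), including biglycan (Bgn, 8.33 and 8.58 against 11.42 and 10.51, 5.69-fold) and Prelp (5.19-fold). Of 12 matricellular genes 4 were lower (2 without Peri array 1, 1 without Peri array 2, 2 without Fibro array 1 and 1 on the deposited values), with Ccn2, the connective tissue growth factor, at 7.21 and 5.85 against 10.40 and 9.91 (12.3-fold, adjusted p = 0.00078). Of 14 proteases and inhibitors 6 were lower (2 without Peri array 2, 3 without Fibro array 1 and 2 on the deposited values). Mmp14, a membrane-bound collagenase, was 9.61-fold and the inhibitor Timp3 6.28-fold lower, while Mmp9, the gelatinase of neutrophils, was counted with the neutrophil genes and was 12.5-fold higher (11.12 and 11.49 against 8.06 and 7.27, adjusted p = 0.0059, and 0.051 without Peri array 2).

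Beyond the defining markers, the tested mesenchymal genes were lower in Peri or not called. Over all genes 8.88% were called higher and 12.8% lower, and the smooth muscle and adventitial fibroblast counts were near these shares. Of 15 pericyte genes 5 were called lower and 0 higher (median -1.20, or -0.95 with bounds), with 3 without Peri array 1, 1 without Peri array 2, 3 without Fibro array 2 and 1 on the deposited values. Mcam, the adhesion molecule CD146 of pericytes and endothelium, was 10.5-fold lower (7.85 and 6.496 against 11.32 and 9.80, adjusted p = 0.0025). Higd1b, a mitochondrial protein enriched in pericytes, was 8.71-fold lower (6.07 and 5.36 against 7.97 and 9.71), but not called without Peri array 2 or Fibro array 2 (adjusted p = 0.094 and 0.11). Of 13 alveolar fibroblast genes 6 were lower, with 3 on the deposited values. Their median was -1.39, -1.91 to -1.18 with 1 array left out, and -0.36 on the deposited values. All 13 had both Peri arrays below both Fibro arrays, against 31.5% of all genes. Mfap4 and Limch1 were 7.13-fold and 7.55-fold lower. Of 12 adventitial fibroblast genes Cd34 (11.4-fold) and Serpinf1 (6.88-fold) were lower and Pi16 was higher. Of 10 smooth muscle genes 1 was called, Mylk, and Acta2, smooth muscle actin, was detected in both (9.47 and 9.72 against 10.69 and 10.46, adjusted p = 0.16). The call of Mylk was lost without Peri array 2 (adjusted p = 0.057).

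Heart muscle genes were called lower in Peri in 5 of 9 cases (median -2.40), with 0 called without Peri array 2, 0 without Fibro array 2 and 1 on the deposited values. The sarcomere gene Tnnc1 lay at 7.35 and 10.27 on Fibro arrays 1 and 2 and 5.38 and 4.56 on the Peri arrays. The summed linear signal of the list was 1837 and 8150 on the Fibro arrays and 714 and 442 on the Peri arrays, so that Fibro array 2 stood apart.

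Detoxification genes were lower in Peri in 9 of 23 cases and higher in 0 (median -0.81). Mt1, a metal-binding metallothionein, lay at 10.04 and 9.58 in Peri and 14.12 and 13.44 in Fibro (15.7-fold lower, adjusted p = 0.00012), the cytochrome Cyp4b1 was 19.2-fold and the flavin monooxygenase Fmo1 11.5-fold lower. Housekeeping pathways held few calls. Ribosomal protein genes gave 1 of 49 higher and 0 lower (median 0.099), and glycolysis 1 of 11 higher, the glucose transporter Slc2a1 (5.75-fold). Respiratory chain genes gave 1 of 53 lower, 4 without Fibro array 1 and 0 without Peri array 2 or Fibro array 2, and their median was -0.61, but -0.98 without Fibro array 1 and -0.16 without Fibro array 2. Of 18 lysosomal genes 3 were lower and 0 higher, and of 19 cell cycle genes 2 were higher and 1 lower (0 to 3 and 0 to 1 when 1 of the 4 arrays was left out, and 0 of either on the deposited values). These shares stand beside 8.88% higher and 12.8% lower over all genes.

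PeriFibro, the population with both colours, lay nearer to Fibro than to Peri for most called genes. In 1053 of the 1105 genes called higher in Peri the PeriFibro mean was nearer to Fibro than to Peri, and in 657 it lay below Fibro. In 1310 of the 1598 genes called lower in Peri PeriFibro was nearer to Fibro, and in 974 it lay above Fibro. Of the listed genes tested, called or not, PeriFibro was nearer to Fibro for 26 of 27 endothelial genes, and nearer to Peri for 11 of 14 type 2 genes, 6 of 6 airway secretory genes and 8 of 9 platelet and erythroid genes. Sftpc, for example, measured 10.70 and 8.99 on the PeriFibro arrays and Slc34a2 5.87 and 4.58. The called genes were picked for the gap between Peri and Fibro. The position of PeriFibro was not counted over all genes tested, so these counts have no such share beside them.

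The difference was then read at day 7 after bleomycin in separate arrays, 2 of Peri and 3 of Fibro. There 937 genes were called (7.53%), 407 higher in Peri (3.27%) and 530 lower (4.26%). Of the genes called higher before injury 96.7% kept their sign at day 7 and 30.0% (332) were called again, and of those called lower 95.9% kept it and 30.7% (490) were called again. Seen from day 7, the 332 are 81.6% of the genes higher and the 490 are 92.5% of the genes lower. Over all genes tested 49% lay above 0 and 51% below 0 at day 7. Of the genes called before injury 0 were called in the opposite direction at day 7. B cell, T cell and cytotoxic genes were called higher at day 7 in 9 of 14, 9 of 16 and 9 of 11 cases, and endothelial genes lower in 20 of 27. Most other lists had fewer calls at day 7. The NF-kB list went from 11 genes called higher to 0, the pan-leukocyte list from 12 to 3 and the neutrophil list from 9 to 3. Of the genes called lower, basement membrane went from 13 to 1, alveolar type 2 from 11 to 3, airway secretory from 6 to 0 and alveolar fibroblast from 6 to 0. The medians of these lists kept their sign, going from 1.66 to 0.65 (NF-kB), 1.72 to 0.83 (pan-leukocyte) and 2.84 to 2.36 (neutrophil). They went from -2.02 to -0.99 for basement membrane and -3.09 to -0.84 for alveolar type 2. For airway secretory they went from -3.05 to -0.74 and for alveolar fibroblast from -1.39 to -0.25. The median turned sign for class II (0.89 to -0.42), monocyte and dendritic cell (0.81 to -0.56) and Fc receptor genes (0.83 to -0.069). It also turned for fibrillar collagens (-0.86 to 0.10), cell cycle (0.49 to -0.19) and glycolysis (0.46 to -0.036). In a test of the change itself, which also sets female against male mice, 60 genes differed (0.482%). In 52 of them the difference moved up, and all 52 had been called lower in Peri before injury. The same uninjured arrays enter both the call and the change, so this direction was partly fixed in advance. The alveolar type 2 list held 4 of the 60 and the airway secretory list 1. The NF-kB, pan-leukocyte, neutrophil, basement membrane and alveolar fibroblast lists held 0.

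**Figure D5:**
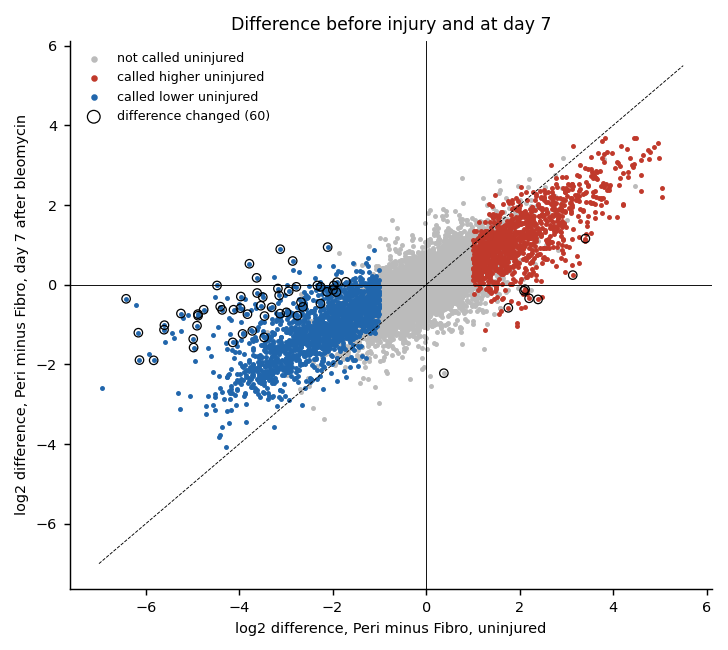
Log2 difference between Peri and Fibro in the uninjured lung (horizontal axis) and at day 7 after bleomycin (vertical axis), 1 point per gene, with the dashed line marking equal differences. Most called genes keep their sign. The 60 circled genes changed by the test of the difference, and 52 of them lie at the left above the dashed line. The uninjured arrays enter both the horizontal axis and that test.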

How the data were processed

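Total RNA of sorted Peri, PeriFibro and Fibro cells was hybridised to 14 Illumina MouseWG-6 v2.0 bead arrays with 1 colour each. The authors deposited an unnormalised signal intensity for each of 45281 probes and array and, beside it, a detection p-value against negative controls. They also deposited normalised log2 values, made per their methods by variance stabilisation and quantile normalisation with lumi (version not given in the sources used here). The methods also state that 2 outlier samples were removed. The background subtraction before deposit is not given in the sources used here.

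Background correction and quantile normalisation used the neqc function (limma 3.58.1, R 4.3.3), with offset 16 and the background estimated from the detection p-values. The filter for detection, a p-value below 0.05 on 2 or more arrays, kept 24445 probes, and the brightest kept probe stood for each gene. A single symbol was given for 34885 probes, and the 18 with several symbols and 10378 without one did not enter. Of 1253 called genes with more than 1 kept probe, all other probes had the same sign in 1082. All 6 groups entered 1 model (lmFit, eBayes), since groups of 2 or 3 arrays say little about spread. The p-values are two-sided and were adjusted over all genes by the Benjamini-Hochberg method. The script was tested on simulated data.

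The comparison and the gene lists were chosen with earlier results of these data known. Genes named are the 20 highest and 20 lowest called, defining markers, up to 4 called members of each list in each direction, genes the study names, and uncalled members given with their values. Those beyond this rule (Cd4, Cd8b1, Hba-a1, Tgfb1, Tgfbr2, Lyz1, Napsa) were chosen after their values were seen. The number of arrays limits the precision, and each array detected 39.38% to 44.36% of its probes. The slides of the arrays are not identified, so no slide block was run. Spp1, Areg and several markers were not analysed here.

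Promoters came from RefSeq (GRCm38.p6). Sensitivity was tried for background correction, offset, scaling, detection filter, probe choice, the model, and each array left out.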

Additional observations from a re-analysis of the deposited data

Results flagged for a closer look

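The difference between Peri and Fibro was not the same in the uninjured lung and at day 7 after bleomycin for 60 genes (limma, test of the change in the log2 difference, adjusted p under 0.05 and at least 2-fold). Injury and sex change together between these arrays and cannot be told apart. The largest change among the genes named above was that of Acaa1b, a peroxisomal thiolase, whose difference changed by 6.07 ± 1.10 SE (adjusted p = 0.039). It was not detected on either uninjured Peri array (4.49 and 4.32) and measured 11.24 and 10.40 in uninjured Fibro, against 4.40 and 6.79 in Peri and 4.90, 7.25 and 5.69 in Fibro at day 7, where the Fibro level was lower. Wfdc2 changed by 4.95 ± 0.67 SE, with day 7 levels of 9.87 and 10.74 in Peri and 11.19, 11.54 and 11.79 in Fibro.

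The type 2 genes Slc34a2, Sftpa1 and Sftpd changed by 4.58 ± 0.75 SE, 4.24 ± 0.70 SE and 3.93 ± 0.69 SE, Lgi3 by 4.52 ± 0.61 SE, Bex4, a small adaptor protein, by 4.48 ± 0.52 SE, and the epithelial genes Cldn3 and Cyp2f2 by 3.62 ± 0.64 SE and 3.49 ± 0.66 SE. Sftpa1 at day 7 was at 4.98 and 5.12 in Peri and 7.39, 6.68 and 6.75 in Fibro. The macrophage gene Gpnmb changed by 4.10 ± 0.55 SE and Mt1 by 3.38 ± 0.59 SE, and for both the Peri level was higher at day 7. Gpnmb measured 11.29 and 12.36 in Peri there, against 6.23 and 5.82 uninjured, and 13.11, 12.04 and 12.65 in Fibro. Mt1 measured 12.34 and 13.27 in Peri, against 10.04 and 9.58 uninjured, and 13.22, 13.34 and 13.62 in Fibro. Tlr1 changed in the other direction (-2.90 ± 0.43 SE, adjusted p = 0.020), from a clear difference before injury to 0.24 at day 7. The count of 60 depended on single arrays, as given below. Groups of 2 or 3 arrays were too small to test for outlying arrays, but some arrays correlated best outside their group. Bleomycin Fibro array 2 did so with uninjured Fibro array 2 (r = 0.956), while bleomycin Fibro arrays 1 and 3 correlated at 0.977. Bleomycin PeriFibro array 3 correlated best with bleomycin Fibro array 2 (0.951).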

How the results depend on the processing

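The direction of the comparison held under every alternative in the sense that the called genes lower in Peri outnumbered those higher, while the counts moved. The values the authors deposited gave 854 called genes (372 higher in Peri, 482 lower), of which 842 were among the 2703 and ran the same way, and 22 genes whose difference changed by day 7. The list medians were smaller in size on them, except for class II (0.89 to 1.01). They went from 3.42 to 1.76 for T cell, -3.09 to -1.12 for alveolar type 2 and -1.20 to -0.18 for pericyte genes. Those of pan-leukocyte (1.72 to 1.60) and endothelial genes (-3.59 to -2.64) moved less. Without background correction the counts were 1444, 596 and 848. Scaling to a common median left 18 changed genes. Leaving out 1 of the 4 uninjured arrays gave 1527 to 2897 called genes, 566 to 1394 higher and 961 to 1503 lower. Leaving out 1 array of either time gave 1 to 101 changed genes, with 21 without uninjured Peri array 1, 1 without uninjured Peri array 2, 28 without uninjured Fibro array 2, 101 and 9 without bleomycin Peri arrays 1 and 2, and 24 and 26 without bleomycin Fibro arrays 1 and 3. Without bleomycin Fibro array 2 there were 83 changed genes, and 3047 genes were called in the uninjured comparison. The cause of these shifts was not tested. A model of the 4 compared arrays alone gave 2036 called genes and no value for the change.

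The replicate numbers did not pair the arrays (correlation of the deviations 0.0422), and the fit with the replicate block gave 2754 called genes (1141 higher, 1613 lower) and 41 changed genes. Signs turned for 7 named genes that were not called. With a common median the difference was 0.20 for Cspg4 and -0.26 for Napsa. That of Cspg4 ran from -0.23 to 0.18 with 1 array left out. The range was -0.28 to 0.64 for Kcnj8, -1.50 to 0.34 for Abca3, -0.61 to 0.15 for Adgre1, -0.16 to 1.25 for Cd8b1, -0.33 to 0.056 for Lyz1 and -0.096 to 0.26 for Napsa. Genes not detected in 1 population have only a bound on their fold.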
